A study of Mus musculus with 6 samples.

Results

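The machinery that moves new proteins into the endoplasmic reticulum (ER) and attaches N-linked glycans to them was examined as a set of 34 named genes. A member was a row of the deposited table that carried one of these gene symbols. By that rule 31 of the 34 members were found among 6532 genes, and Sec11c, Ost4 and Tram2 are not analysed here. The members comprise 2 subunits of the signal recognition particle (SRP) receptor, 4 of the Sec61 channel, its partners Sec62 and Sec63, 4 of the translocon-associated protein (TRAP) complex, Tram1, 4 signal peptidase subunits, 8 oligosaccharyltransferase (OST) subunits, 3 glucosidase genes and 3 p24 cargo receptors.

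Secreted and membrane proteins are recognised by SRP as their signal sequence leaves the ribosome, and the SRP receptor docks the ribosome on the ER membrane. The chain then passes through Sec61, a channel whose large alpha subunit spans the membrane many times and whose beta and gamma subunits are small tail-anchored proteins. Signal peptidase removes the signal peptide, OST transfers a preassembled glycan to asparagines, and glucosidases trim the terminal glucoses of that glycan. Pyruvate kinase M (PKM) catalyses the last step of glycolysis, and the PKM2 isoform was the protein whose RNA contacts were mapped.

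The libraries came from E14, an established line of mouse embryonic stem cells, cultured with serum and LIF. Wild-type cells received siRNA against PKM1 and PKM2 (siPKM) or a non-targeting pool (siCtrl), each at 20 nM for 36 h with a passage 16 h before harvest, and both received cycloheximide at 100 µg/ml for 2 min. Each siRNA group gave 1 library of total RNA after ribosomal RNA removal and 1 library of ribosome-protected fragments (RPF) made with RNase A and RNase T1. The remaining 2 libraries were iCLIP replicates from cells carrying FLAG-HA-tagged PKM2, crosslinked with 0.35 J/cm2 of UV light and purified through both tags without an siRNA. Reverse transcription tends to stop beside a crosslinked base, so stops per mature transcript were counted. No pull-down from untagged cells was analysed here, so stop counts include any background of the method.

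Reads of the coding sequence (CDS) outside its first 15 and last 5 codons summed to 10349212 in siPKM RNA, 12111993 in siCtrl RNA, 12545485 in siPKM RPF and 15175242 in siCtrl RPF, and the CLIP replicates held 677534 and 670508 stops. Every gene of the table had at least 151 such reads in each siRNA library. The Pkm2 row stood at 1582 CPM (counts scaled to a library CDS sum of 1000000) in siPKM RNA and 5024 CPM in siCtrl RNA, a log2 ratio of -1.71, and its RPF ratio was -1.68. Of 12 embryonic stem cell markers 11 were in the table, and they summed to 5150 CPM in siPKM RNA against 5178 CPM in siCtrl RNA. Primitive endoderm markers (3 of 9 in the table) summed to 448 CPM in siPKM RNA and 254 CPM in siCtrl RNA, neural markers (3 of 4) to 125 and 177 CPM, trophoblast markers (3 of 6) to 83.6 and 77.5 CPM, and the single fibroblast marker, Vim, had 304 and 229 CPM. Single markers could differ in opposite directions under such sums: log2 RNA ratios of siPKM over siCtrl ran from -0.38 (Lin28a) to 0.55 (Esrrb) among stem cell markers and from -0.60 (Tfap2c) to 0.59 (Krt8) among trophoblast markers. The part of these cell type markers in the ratios below was not tested. With a single library per siRNA and assay, no siPKM to siCtrl difference has a replicate check and no p-value is given.

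PKM2 crosslinks were frequent on these messages relative to their abundance. The 31 members carried 7826 stops in replicate 1 and 7779 in replicate 2, which is 1.16% of all stops in each, against 0.446% of the whole-transcript RNA reads and 0.404% of the whole-transcript RPF reads of siCtrl cells. CLIP over RNA, the log2 ratio of the replicates' mean stop CPM to the whole-transcript CPM of siCtrl RNA, had a median of 1.32 over members (1.28 and 1.36 in the replicates) and of 0.08 over all genes. It was at least 2-fold for 22 of 31 members (71.0%), against 27.5% of all genes, and at least 2-fold in both replicates for 18 members, against 24% of all genes. It was at most 0.5-fold for 3 members, against 19.5% of all genes. The RNA used as the denominator came from siCtrl cells without the tag and not from the CLIP cells.

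**Figure D1:**
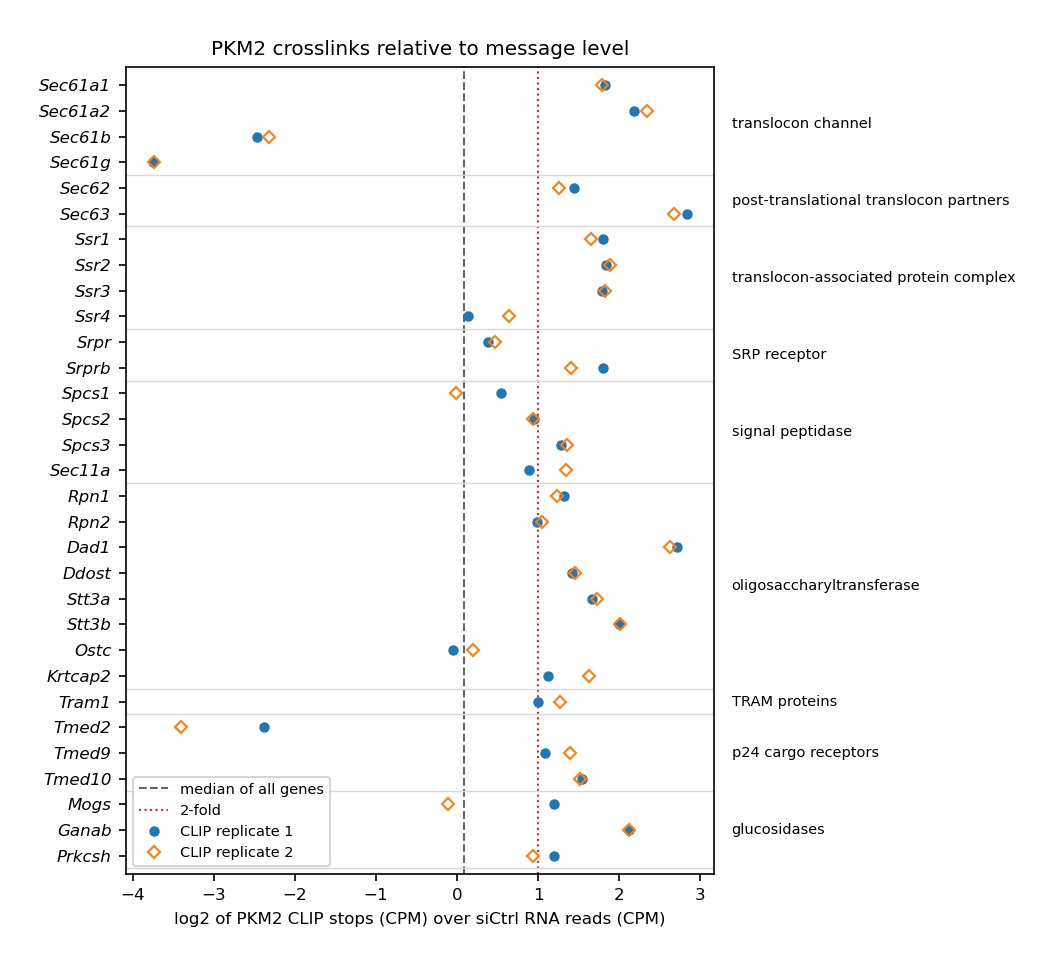
PKM2 CLIP over siCtrl RNA for each of the 31 members, by role. The horizontal axis is the log2 of CLIP stops over RNA reads, both as CPM; circles are CLIP replicate 1 and diamonds replicate 2, the dashed line is the median of all genes (0.08) and the dotted line 2-fold. Most members lie right of the dotted line in both replicates, and Sec61b, Sec61g and Tmed2 lie far to the left.

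Within the Sec61 channel the subunits divided. Sec61a1, the main pore-forming alpha subunit, had 692 and 663 stops in the replicates where its share of RNA reads would give 195 and 193, a CLIP over RNA of 1.81 ± 0.03 (SD, n = 2, as for the CLIP values that follow). Its paralog Sec61a2 had 111 and 123 stops against 24.6 and 24.4 at its RNA share (2.26 ± 0.11). The beta subunit Sec61b had only 19 and 21 stops against 108 and 107 (-2.39 ± 0.11), and the gamma subunit Sec61g had 7 and 7 against 101 and 100 (-3.75 ± 0.01). The 2 alpha subunits thus lay above their RNA share in both replicates and the beta and gamma subunits below it, with Sec61g at percentile 2.14 of all genes. For Sec61b the exact 95% Poisson intervals of the counts were 11.4 to 29.7 and 13.0 to 32.1 stops, and both ended below the number at its RNA share. Sec61g has 2 named pseudogenes in the mouse gene table (Gm11575 and Gm4184), and how reads with several matches were counted is not given in the sources used here, so its value is uncertain.

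Sec62 and Sec63, which serve post-translational translocation, both exceeded 2-fold. Sec63 had the highest ratio of the 31 members, with 162 and 143 stops against 22.7 and 22.4 at its RNA share (2.76 ± 0.12, percentile 97.2), and Sec62 had 154 and 134 (1.35 ± 0.13). Of the TRAP complex, which assists insertion of some signal sequences, Ssr1, Ssr2 and Ssr3 lay at 1.73, 1.87 and 1.81 in that order. The fourth subunit, Ssr4, had 44 and 62 stops and a ratio of 0.41 ± 0.36, little more than its replicate spread above its RNA share. Tram1, a channel neighbour that contacts signal sequences, had 225 and 269 stops (1.14 ± 0.19).

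The SRP receptor and signal peptidase were less uniform. Srprb, the membrane-anchored beta subunit of the receptor, had 105 and 79 stops against 30.4 and 30.1 at its RNA share (1.61 ± 0.28), while the alpha subunit Srpr had 118 and 124 against 91.0 and 90.1 (0.42 ± 0.06). Among signal peptidase subunits, Spcs3 stood at 1.32 ± 0.06 and the catalytic subunit Sec11a at 1.14 ± 0.32. Spcs2 at 0.94 ± 0.01 was the member just under 2-fold, and Spcs1, with 49 and 33 stops, stood at 0.29 ± 0.39, within its replicate spread of its RNA share. Spcs2 and Spcs3 also have named retrocopies or a pseudogene.

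OST subunits were at least 2-fold in 7 of 8 cases, against 27.5% of all genes, with a median of 1.42. Dad1, a small subunit, led with 133 and 124 stops against 20.3 and 20.1 at its RNA share (2.68 ± 0.06). The alternative catalytic subunits were also high: Stt3b, which can act after translocation, had 535 and 534 stops (2.00 ± 0.01) and Stt3a, which acts on chains in the channel, had 490 and 508 (1.69 ± 0.05). The structural subunits Ddost, Rpn1 and Rpn2 followed at 1.44, 1.28 and 1.02, and Rpn2 was the member just inside 2-fold. Krtcap2, a subunit of the Stt3a form, had 44 and 62 stops (1.40 ± 0.36). Ostc, the other subunit of that form, was the exception at 99 and 116 stops, a ratio of 0.08 ± 0.17 that equals the median of all genes.

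Among the glucosidase genes, Ganab, the catalytic subunit of glucosidase II, had 826 and 817 stops against 190 and 188 at its RNA share (2.12 ± 0.00). Its lectin-like beta subunit Prkcsh stood at 1.07 ± 0.19. Mogs, glucosidase I, had 56 and 22 stops, and its ratio of 0.69 ± 0.93 was not distinguishable from its RNA share given the replicate spread. Of the p24 proteins, which select cargo for vesicles leaving the ER, Tmed10 stood at 1.53 ± 0.02, and Tmed9 had 216 and 264 stops against 102 and 101 at its RNA share. Tmed2 had 19 and 9 stops against 102 and 101 at its RNA share (-2.80 ± 0.72), and both Tmed2 and Tmed10 have a named pseudogene or copy. Without the 5 members that have named copies, a choice made after the values were seen, the median was 1.38. Of those 26 members 20 were at least 2-fold, against 27.5% of all genes.

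The position of a member in this order was shared between replicates (Spearman rho 0.92 over 31 members, 0.94 over all genes, given as a description). CLIP over RNA and the baseline translation efficiency of siCtrl cells, defined further on, had a rho of 0.55 over members and 0.19 over all genes, and these measures share the siCtrl RNA library. With siCtrl RPF in place of RNA as the denominator, the median was 1.38 over members and 0.37 over all genes. The 3′ UTR held a median of 38.2% of a member's siCtrl RNA reads and 26.2% over all genes. The rho of this share with CLIP over RNA was 0.12 over members and 0.18 over all genes.

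Neighbouring steps of the pathway were set beside the members with lists chosen in the same way. Over all genes the median CLIP over RNA was 0.08 and 27.5% were at least 2-fold. Genes of glycan trimming and recognition, the step after OST, had a median of 1.39, and 8 of 10 were at least 2-fold. Other translocon and signal peptide factors had a median of 1.10 (8 of 13). For assembly of the lipid-linked oligosaccharide, the donor used by OST, the median was 0.76 (7 of 19, 36.8%). Split by place, a division made after the values were seen, the 11 genes of steps at the ER membrane had a median of 1.00 with 7 at least 2-fold. The 8 genes that supply nucleotide sugars in the cytosol had a median of -0.02 with 0 at least 2-fold, and they ranged from -2.27 to 0.52. The ER membrane glucosyltransferase Alg10b was the highest of the list at 3.22 ± 0.08, with 240 and 257 stops.

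The remaining lists had medians of 0.83 or less. Other p24 receptors had a median of 0.83 (1 of 3 at least 2-fold), other OST subunits 0.63 (1 of 3), the coat and exit factors of COPII vesicles 0.70 (4 of 14) and the ER membrane protein complex, an insertase for membrane proteins, 0.54 (3 of 8). The GET pathway, which inserts tail-anchored proteins, had a median of 0.25 (2 of 7). The COPII and GET counts were each 28.6% of their list, near the 27.5% of all genes at least 2-fold. Other p24 receptors and other OST subunits were at 33.3%, from 3 genes each. The protein subunits of SRP itself, which act in the cytosol, had a median of -0.72, and 0 of 5 were at least 2-fold.

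**Figure D2:**
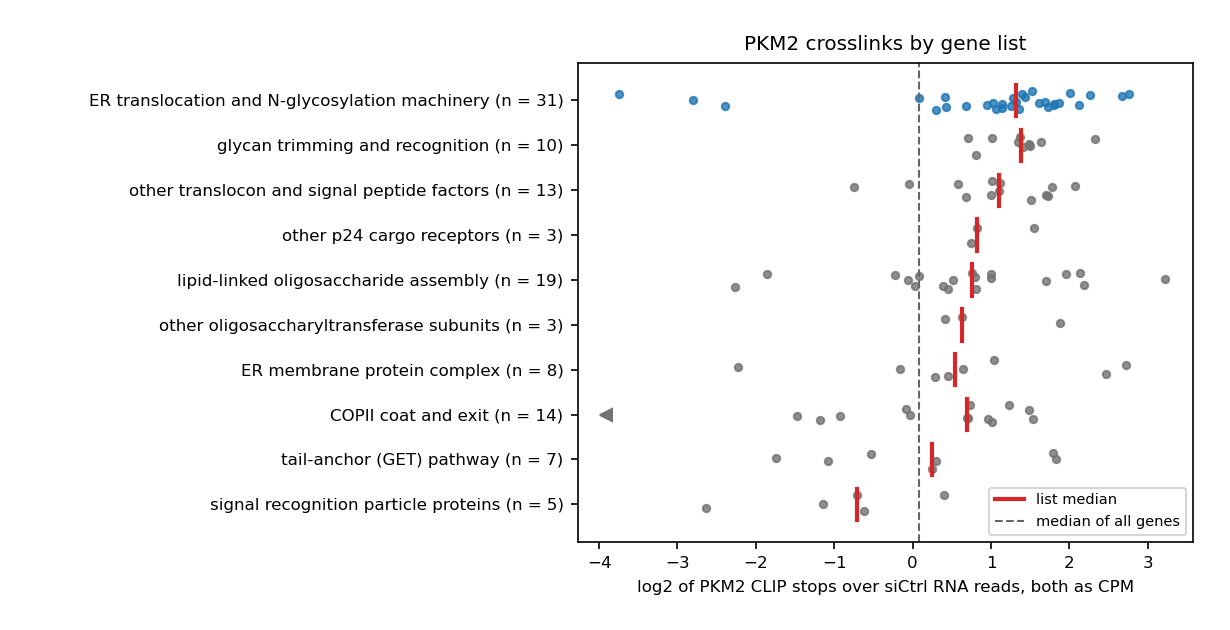
PKM2 CLIP over siCtrl RNA for the members (blue, top row) and 9 lists of neighbouring pathways (grey). The horizontal axis is the log2 of CLIP stops over RNA reads, both as CPM; each point is a gene, jittered vertically, red bars are list medians and the dashed line is the median of all genes. The triangle marks the upper limit of -3.91 for Mia3, which had 0 stops in both replicates, taking 3 stops per replicate as the limit. Medians range from 1.39 for glycan trimming to -0.72 for SRP proteins.

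Between siPKM and siCtrl cells, the levels and footprints of these messages differed little from the median gene. Ratios of siPKM over siCtrl were computed from CDS reads and centred on the median gene, so a change common to all genes cannot be seen, and intervals given with them are 95% intervals from read counts that cover counting error only. The median log2 ratio of members was 0.04 for RNA, 0.13 for RPF and 0.08 for translation efficiency (TE, RPF relative to RNA). At 1.5-fold, 0 of 31 members differed in RNA, RPF or TE in either direction, against 4.12%, 4.19% and 1.01% of all genes in that order. Together the members held 0.415% of CDS reads in siPKM RNA and 0.384% in siCtrl RNA, and 0.466% in siPKM RPF and 0.416% in siCtrl RPF. Fewer cells of a type and less RNA per cell cannot be told apart in such bulk libraries.

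At a lower threshold, a log2 ratio beyond 0.32 in either direction (25% higher, or the inverse ratio), a few members stood out, at shares near or below those of all genes. In RNA 2 of 31 members were higher in siPKM (6.45%, against 12.4% of all genes) and 1 was lower (3.23%, against 8.47%); with reads of the whole transcript 0 were higher. In RPF 4 were higher (12.9%, against 11.1%) and 0 were lower (against 8.7%). In TE 1 was higher (3.23%, against 3.8%; 3 with whole-transcript reads) and 0 were lower (against 6.26%), although Srprb was lower with the authors' library totals, with all CDS reads and with a higher floor on reads. The TE ratio was above 0 for 25 of 31 members, where 50% of all genes are above 0 by the centring, and that number was 23 to 25 under the alternative scalings and read definitions.

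**Figure D3:**
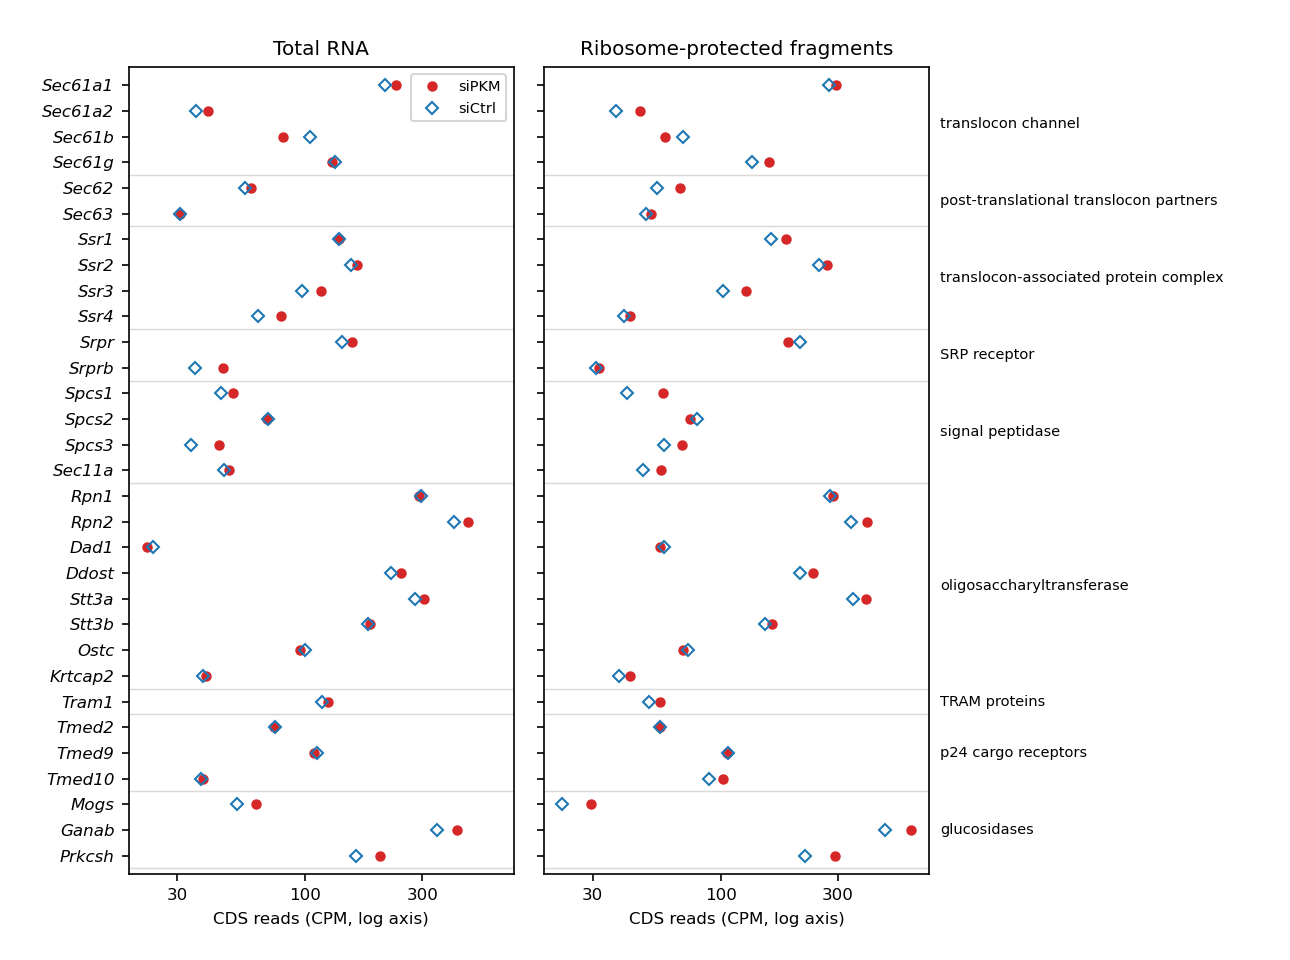
CDS reads of the 31 members in siPKM (filled circles) and siCtrl (open diamonds) cells, in total RNA (left) and ribosome-protected fragments (right), by role. Horizontal axes are CPM on a log scale, with 1 library per symbol. The paired symbols lie close together for most members, with Sec61b lower in siPKM and the glucosidase genes higher in siPKM in both panels.

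Among the groups of members, only the glucosidase genes had every RPF ratio past 0.32, all higher in siPKM. This held for 3 of 3 genes under every alternative scaling, read definition, pseudocount and floor. These alternatives reuse the same single libraries and are no replicate check. RPF ratios past 0.32 also occurred in the neighbouring lists described below. Higher past 0.32 in RPF were 3 of 10 glycan trimming genes, 3 of 13 other translocon factors and 4 of 19 oligosaccharide assembly genes. Each other neighbouring list held at most 1 such gene, and the share over all genes was 11.1%. Below -0.32 were 2 of 19 oligosaccharide assembly genes and 1 of 8 ER membrane protein complex genes, against 8.7% of all genes. Ganab had 4278 CDS reads in siPKM RNA and 4178 in siCtrl RNA, and 7508 in siPKM RPF and 7100 in siCtrl RPF, from libraries of which the siPKM ones were smaller. Scaled to library size, its log2 ratio was 0.21 (0.15 to 0.28) in RNA and 0.33 (0.29 to 0.38) in RPF. Prkcsh had 2089 and 1950 RNA reads and 3675 and 3337 RPF reads in siPKM and siCtrl cells, ratios of 0.28 in RNA and 0.39 (0.32 to 0.46) in RPF. Both subunits of glucosidase II were thus higher in siPKM in both kinds of library, by more than counting error. Mogs, with fewer reads (649 and 638 in siPKM and siCtrl RNA, 371 and 341 in siPKM and siCtrl RPF), had ratios of 0.20 and 0.37 (0.16 to 0.59). These 3 genes were among the 4 members past 0.32 in RPF (12.9%, against 11.1% of all genes). Their TE ratios were 0.11 to 0.17.

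The SRP receptor was the group with the lowest TE ratios. Srpr had 1603 CDS reads in siPKM RNA and 1712 in siCtrl RNA, but 2348 in siPKM RPF and 3191 in siCtrl RPF. Its RNA ratio was 0.09, its RPF ratio -0.19 (-0.27 to -0.11) and its TE ratio -0.28 (-0.40 to -0.15). Srprb had 476 and 429 RNA reads and 399 and 471 RPF reads in siPKM and siCtrl cells. Its RNA ratio was 0.33 (0.14 to 0.52), the RPF ratio 0.01 and the TE ratio -0.32 (-0.59 to -0.05). For Srpr the lower TE came with fewer footprints, whereas for Srprb it came with more RNA and footprints at the level of the median gene.

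In the Sec61 channel, Sec61b was the only member whose RNA ratio was below -0.32. It had 836 CDS reads in siPKM RNA and 1260 in siCtrl RNA, a ratio of -0.41 (-0.54 to -0.29), and 746 and 1067 RPF reads in siPKM and siCtrl cells, a ratio of -0.26 (-0.40 to -0.13). Its partners in the channel did not share that difference. Sec61a1 had 2414 and 2544 RNA reads and 3716 and 4178 RPF reads in siPKM and siCtrl cells, with ratios of 0.10 and 0.08. Sec61g had 1331 and 1593 RNA reads and 1964 and 2031 RPF reads, with ratios of -0.08 and 0.20 and a TE ratio of 0.28 (0.14 to 0.42). Sec61a2 had ratios of 0.12 in RNA and 0.30 in RPF.

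Signal peptidase held the member with the highest RPF and TE ratios. Spcs1, a non-catalytic subunit, had 522 CDS reads in siPKM RNA and 550 in siCtrl RNA, and 730 in siPKM RPF and 629 in siCtrl RPF. Its RNA ratio was 0.10 (-0.07 to 0.28), its RPF ratio 0.47 (0.31 to 0.62) and its TE ratio 0.36 (0.13 to 0.59). Spcs3 differed in RNA instead, with 461 and 412 RNA reads and 870 and 888 RPF reads in siPKM and siCtrl cells, ratios of 0.34 (0.15 to 0.53) and 0.22 and a TE ratio of -0.12. Sec11a had ratios of 0.02 and 0.23 in RNA and RPF, and Spcs2 of -0.05 and -0.12, so the 4 subunits did not move as a unit.

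The 8 OST subunits had RNA ratios of -0.13 (Dad1) to 0.15 (Rpn2) and RPF ratios of -0.08 (Ostc and Dad1) to 0.20 (Rpn2). Their TE ratios lay between 0.03 and 0.12, all above 0, although 7 of 8 did with all CDS reads and 6 of 8 with reads of the whole transcript. The catalytic subunits Stt3a and Stt3b had RPF ratios of 0.15 and 0.06. The translocon partners also lay within that threshold, with RPF ratios of 0.29 for Sec62 and 0.06 for Sec63, and of 0.06 (Ssr4) to 0.28 (Ssr3) for TRAP. Within TRAP, TE ratios were 0.22 (0.09 to 0.36) for Ssr1 and -0.22 (-0.44 to 0.00) for Ssr4, and these intervals do not overlap. Tram1 had an RPF ratio of 0.13, and the p24 genes of -0.03 (Tmed9), -0.02 (Tmed2) and 0.17 (Tmed10).

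**Figure D4:**
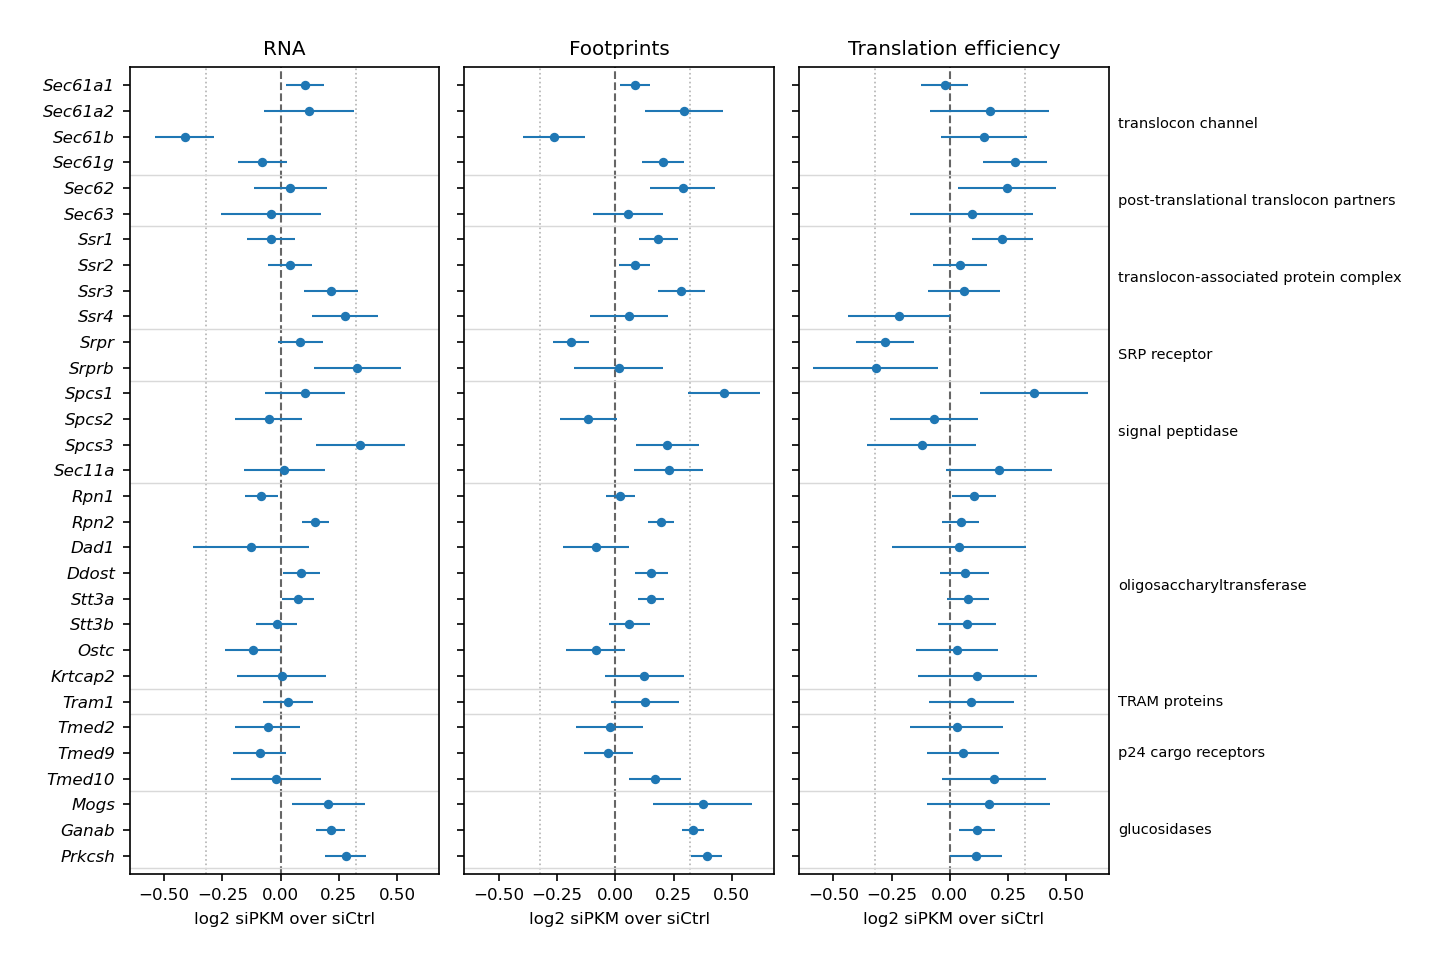
Log2 ratios of siPKM over siCtrl for each of the 31 members in RNA (left), footprints (middle) and TE (right), centred on the median gene. Bars are 95% intervals from read counts of 1 library per group, the dashed line is 0 and the dotted lines mark 0.32 in either direction. Sec61b lies left of the dotted lines in RNA, Spcs1 and the 3 glucosidase genes lie right of them in footprints, and both SRP receptor subunits lie left of 0 in TE.

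The size of the CLIP over RNA ratio and the TE ratio had a Spearman rho of -0.00 over members and -0.33 over all genes, as a description over genes that share libraries. Sec63 and Dad1, the members with the highest CLIP over RNA, had TE ratios of 0.09 (-0.17 to 0.36) and 0.04 (-0.25 to 0.33). Sec61g, with the lowest CLIP over RNA, had 0.28 (0.14 to 0.42), and Tmed2, the next lowest, had 0.03 (-0.17 to 0.23).

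In neighbouring lists, few genes passed 1.5-fold. Man2a1, a Golgi mannosidase of glycan trimming, had 759 CDS reads in siPKM RNA and 471 in siCtrl RNA, and 846 in siPKM RPF and 552 in siCtrl RPF, a ratio of 0.87 in each. Pmm1, a phosphomannomutase of sugar supply, had 1506 and 2617 RNA reads in siPKM and siCtrl cells, a ratio of -0.62 (-0.71 to -0.53). Ubl4a of the GET pathway had a TE ratio of 0.77 (0.44 to 1.10), from 207 and 291 RNA reads and 401 and 346 RPF reads in siPKM and siCtrl cells. In the lists without such a gene, RPF ratios ran from -0.34 (Emc8) to 0.53 (Emc10) in the ER membrane protein complex, from -0.23 (Srp19) to 0.15 (Srp72) in SRP, and from -0.21 (Preb) to 0.40 (Mia3) among COPII genes. They ran from -0.06 (Tmco1) to 0.47 (Asph) among other translocon factors, from -0.31 (Tmem258) to 0.42 (Tusc3) among other OST subunits, and from 0.00 (Tmed4) to 0.28 (Tmed1) among other p24 receptors. The median RPF ratio was 0.23 for glycan trimming, with all 10 genes above 0, and 0.02 for oligosaccharide assembly, with 11 of 19 above 0. By the centring 50% of all genes were above 0. The lowest glycan trimming genes, Man1b1 (0.01, -0.23 to 0.25) and Edem1 (0.01, -0.30 to 0.32), had intervals that included 0.

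Baseline TE, the log2 of RPF CPM over RNA CPM in the CDS relative to the median gene, differed widely among members. Its median over members was 0.35 in siPKM cells and 0.20 in siCtrl cells, and it was above 0 for 22 of 31 members in siCtrl cells. It was highest for Dad1 (1.5 in siPKM and 1.48 in siCtrl cells) and Tmed10 (1.59 and 1.42). It was lowest for Mogs (-0.91 in siPKM and -1.05 in siCtrl cells) and Tram1 (-0.94 and -1.01). Members of 1 complex could lie far apart, as for Ssr2 (0.91 and 0.89) and Ssr4 (-0.72 and -0.48) in TRAP.

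Footprints at the start of the CDS varied more between members than between conditions. The first 15 codons held a median of 5.70% of a member's CDS footprints in siPKM cells and 5.77% in siCtrl cells, against 4.60% and 4.66% over all genes. A short CDS has more of its length in 15 codons, and coding lengths were not used here. Sec61b had the highest share, 30.9% (exact Clopper-Pearson interval 28.3 to 33.5) in siPKM RPF and 33.3% (31.1 to 35.5) in siCtrl RPF, with 15.2% and 15.9% of its RNA reads there. Sec61g had only 0.46% in siPKM RPF and 0.49% in siCtrl RPF, beside 3.29% and 2.99% in RNA. Spcs1 had 0.27% in siPKM RPF and 0.16% in siCtrl RPF, but also only 0.55% and 0% in RNA. These Spcs1 shares rest on 2 and 1 RPF reads and on 3 and 0 RNA reads in siPKM and siCtrl cells. Rpn2 was the only member whose intervals did not overlap between conditions, at 4.59% (4.04 to 5.19) in siPKM RPF and 6.15% (5.53 to 6.82) in siCtrl RPF, that is 1 of 31 members (3.23%) against 4.87% of all genes.

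**Figure D5:**
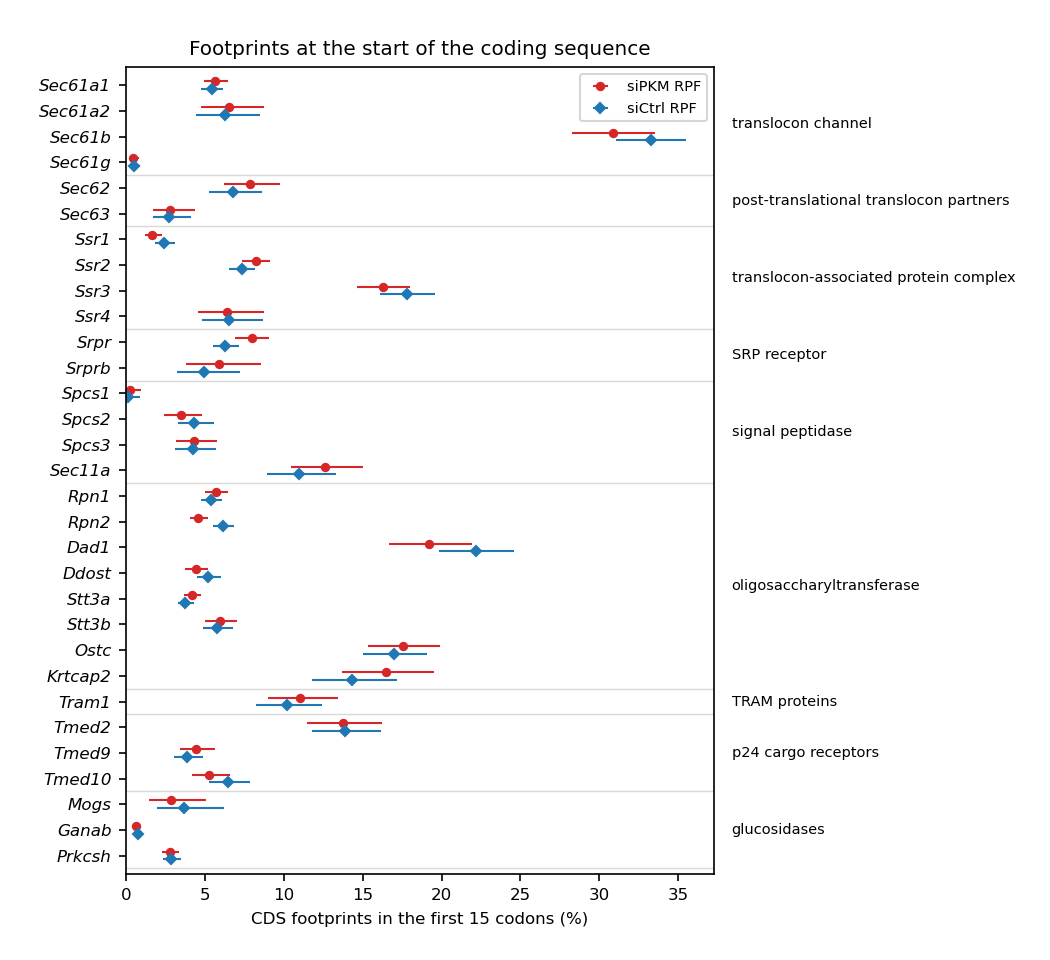
Share of CDS footprints in the first 15 codons for each of the 31 members in siPKM (red circles) and siCtrl (blue diamonds) cells. The horizontal axis is the percentage of CDS footprints, bars are exact 95% intervals and each symbol is 1 library. Sec61b stands at 30.9% and 33.3%, and the paired symbols of a member lie close together.

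The 5′ UTR held an appreciable share of footprints in several members, and in siPKM RPF this share was highest in Ssr4, Krtcap2 and Tram1. In Ssr4 it held 20.1% of transcript footprints in siPKM cells and 19.0% in siCtrl cells, but also 17.4% and 17.1% of RNA reads. In Krtcap2 it held 12.2% in siPKM RPF and 8.48% in siCtrl RPF, beside 6.29% and 7.28% in RNA. In Tram1 it held 10.0% in siPKM RPF and 11.5% in siCtrl RPF, beside 2.19% and 2.41% in RNA. Intervals did not overlap between conditions for 2 of 31 members (6.45%, against 3.69% of all genes). These were Stt3b, with 4.86% (4.02 to 5.83) in siPKM RPF and 7.59% (6.62 to 8.66) in siCtrl RPF, and Ssr2, with 2.75% (2.26 to 3.32) and 4.87% (4.26 to 5.54).

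Some ER genes carry promoter elements of the unfolded protein response, to which the factors ATF6 and XBP1 bind. RefSeq promoters (assembly GRCm38.p6, 250 bases before to 50 after the gene start) were matched for 27 of 34 members and searched on both strands for ERSE (CCAAT, any 9 bases, CCACG), ERSE-II (ATTGG, any base, CCACG) and UPRE (TGACGTGG), of which ERSE and ERSE-II share CCACG. ERSE and UPRE were found in 0 of the 27, and in 0.137% and 0.714% of 27025 promoters. ERSE-II was found in 1 member, Krtcap2, and in 0.0444% of promoters. It is shown because it is the only match, at chr3:89246490-89246500 on the plus strand, 18 bases after the gene start, with the motif in capitals:
Krtcap2: cacggATTGGACCACGgacgg
Krtcap2 had 408 CDS reads in siPKM RNA and 461 in siCtrl RNA, a log2 ratio of 0.00 (-0.19 to 0.20). A match describes these letters only.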

How the data were processed

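A single deposited table held all 6 libraries. Per the file headers, the authors deposited raw counts of reads per transcript region (5′ UTR, first 15 codons, rest of the CDS, last 5 codons, 3′ UTR) and raw counts of stops for each mature transcript. They also deposited log2 values of RPM, TE and CLIP enrichment. Of these only the RPM of the CDS was used, to recover the authors' library totals. Per the submitters' processing notes, cutadapt, Bowtie2 and the mm9 build were used. Their settings, the counting tool, strand handling and how multiply matching reads were treated are not given in the sources used here. Every row had at least 151 CDS reads in each siRNA library, so genes below that level are not analysed here.

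The table's 6535 rows gave 6532 genes after 3 rows with a repeated symbol were dropped, keeping the row with more RNA reads, and a floor of 64 mean CDS reads removed 0 genes. Groups came from the sample titles. Ratios were computed with Python 3.11.15, pandas 2.3.3, numpy 2.4.6 and scipy 1.17.1 on all genes, as log2 of siPKM over siCtrl CDS reads with 0.5 reads added, scaled to the library sum and centred on the median gene. TE is the RPF ratio less the RNA ratio, centred again. CLIP over RNA used 0.5 added counts and the sums of stops and whole-transcript reads. The labels do not state whether the CLIP replicates were separate cultures, and their SD may therefore be technical. Intervals cover counting error only, since reads copied by PCR are not independent molecules unless identifiers mark them. The deposited columns of TE, scaled stops and CLIP enrichment, including the authors' mean CLIP enrichment, were not used. The ratio code was tested on simulated data.

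The 34 members, the pathway and marker lists and the thresholds were chosen with earlier results of these data known. Every member is accounted for, and reads per library are given for Srpr, Srprb, Sec61a1, Sec61b, Sec61g, Spcs1, Ganab, Prkcsh, Mogs and any member whose log2 ratio lay beyond 0.32 (25% higher, or the inverse ratio). From each pathway list, genes past 1.5-fold are named, or else the highest and lowest RPF ratio. The count for Krtcap2 and the CLIP value of Alg10b fall outside this rule and were chosen after their values were seen. Lists were cleaned of 4 symbols that named other genes or members. Genes are given by current symbols; names were matched for 6468 genes to RefSeq's table of assembly GRCm38.p6, whose coordinates were used only for the promoter shown. Alternatives were edgeR 4.0.16 TMM scaling in R 4.3.3, the authors' totals, other read regions, pseudocounts, floors, folds, CLIP denominators and single CLIP replicates.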

Additional observations from a re-analysis of the deposited data

How the results depend on the processing

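The median ratio of members ranged over the alternatives from 0.02 to 0.08 in RNA, 0.13 to 0.16 in RPF and 0.06 to 0.09 in TE. At 1.5-fold, 0 members passed in either direction under each scaling, read region, pseudocount and floor tried. At the lower threshold, a log2 ratio beyond 0.32, the counts were 2 higher and 1 lower in RNA, 4 higher in RPF and 1 higher in TE. Over the scalings, read regions, pseudocounts and floors these became 0 to 3 higher in RNA and 1 to 3 higher and 0 to 1 lower in TE, where the lower member was Srprb at -0.32 to -0.34 in 3 settings. The counts lower in RNA and in both directions in RPF stayed at 1, 4 and 0. With siCtrl RNA reads of the CDS as the denominator the CLIP median was 1.44 (all genes 0.18), and with siCtrl RPF reads of the CDS it was 1.38 (all genes 0.37). Leaving out a CLIP replicate gave medians of 1.28 (without replicate 2) and 1.36 (without replicate 1), with 20 and 21 members at least 2-fold. Of 837 values of single members, 779 stayed within their error, 58 moved beyond it and 0 changed sign where called. Of those that moved, 25 and 26 came from the CLIP denominators. Many of those that stayed had to do so, and their number is no measure of stability. The floor removed 0 genes, so the 93 values without it were unchanged. For each CLIP replicate left out, all 31 values stayed, because a single replicate lies within the SD of 2 replicates by construction. Other scalings moved the median of all genes by at most 0.04.

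No paired analysis was possible because there was 1 library per siRNA and assay and the CLIP replicates belong to 1 group. With 1 library per group, the spread between cultures is unknown, and for a member with 7 stops or 233 reads the counting error is itself wide.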
